A study of Mus musculus with 8 samples.

Results

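The genes of the proteasome, the protease that degrades ubiquitin-tagged proteins, were examined in 4T1 mouse mammary tumor cells. Members were all protein-coding genes whose symbol is Psma, Psmb, Psmc, Psmd, Psme, Psmf or Psmg followed by a digit, leaving out the inducible catalytic subunits Psmb8, Psmb9 and Psmb10. This gave 47 of the 54532 listed genes. A line with a stable shRNA to MCT-1 (shMCT-1, gene Mcts1) and a line with a scramble shRNA were kept in RPMI-1640 with serum and puromycin at 6 µg/ml and received anti-IL-6R antibody at 100 ng/ml or IgG for 48 h. The puromycin value is that of the labels, and the study's methods give a lower concentration for selecting the transfected cells. Each of the 4 combinations of line and antibody had 2 poly(A) RNA-seq libraries, named for example shMCT-1 + IgG. Each shRNA was carried by 1 stable line, and whether a line is a clone or a pool is not given in the sources used here. Silencing of MCT-1 and other differences between the 2 lines therefore cannot be told apart. The labels do not say whether replicates came from separate cultures, so that p-values cover only the spread between these libraries.

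The proteasome consists of a barrel-shaped core particle and of particles that cap its ends. The outer alpha rings of the core gate the entry, and the inner beta rings hold the proteolytic sites, which belong to Psmb5 (chymotrypsin-like), Psmb6 (caspase-like) and Psmb7 (trypsin-like). The regulatory particle binds ubiquitin chains and feeds unfolded substrates into the core, with a base of ATPases (Psmc genes) and further non-ATPase subunits (most Psmd genes). Alternative caps (Psme genes) and the inhibitor Psmf1 act on the core, while Psmg1 to Psmg4, Psmd5, Psmd9 and Psmd10 are chaperones of assembly that are not part of the finished particle.

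Expression is given in CPM, RSEM expected counts scaled to the library total. Library totals ranged from 19839299 to 33063570 counts, with all shMCT-1 libraries (up to 23448587) below all scramble libraries (24100084 or more). Mcts1 was at 11.8 to 15.4 CPM in the scramble libraries and at 4.92 to 6.70 CPM in the shMCT-1 libraries (log2 fold change −1.08 ± 0.17 within IgG, adjusted p = 0.000676, edgeR). The epithelial markers Epcam, Cdh1, Krt8 and Krt18 summed to 1972 to 2113 CPM in scramble and 2483 to 2683 CPM in shMCT-1 libraries, while the leukocyte markers stayed at or below 0.512 CPM in sum, with Ptprc, Cd3e and Adgre1 at 3 counts or fewer in every library. Within the epithelial list, Epcam was at 3.75 to 4.93 CPM in scramble and 49.4 to 54.5 CPM in shMCT-1 libraries, whereas Cdh1 overlapped (291 to 315 and 245 to 305 CPM). The endothelial markers Pecam1, Cdh5 and Kdr summed to 0.096 to 0.332 CPM in scramble and 0.554 to 1.82 CPM in shMCT-1 libraries. The part of these shifts in the results was not tested. The library scramble + IgG replicate 2 stood apart. Of the 45 tested proteasome genes, 43 lay outside the range of the other 3 scramble libraries in it (95.6%), compared with 75.3% of all tested genes. In shMCT-1 + IgG replicate 2, 31 of 45 lay outside the range of the other 3 shMCT-1 libraries (68.9%, all tested genes 49.4%). For shMCT-1 + anti-IL-6R replicates 1 and 2 these shares were 53.3% and 66.7% (all tested genes 62.8% and 57.7%). The median log2 fold change within IgG is also given without scramble + IgG replicate 2 and without shMCT-1 + IgG replicate 2 in turn.

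Of the 47 genes, 45 were above 1 CPM in 2 or more libraries and were tested. Psma8, an alpha subunit of spermatogenic cells, was at 0 counts in every library, and Psmb11, the beta subunit of thymic epithelium, reached 2 counts at most. Psmc3ip is a member by its symbol only, since its product is a recombination factor. Every tested gene other than Psme2b had at least 258 counts in each library. Psme2b had 11.1 to 32.1 counts and is a near-identical copy of Psme2, so that the reads of this pair could be split between them. A total of 16 tested genes had a non-whole count in at least 1 library. The pseudogenes of Psmb5, Psmb6 and Psmb7 listed by name were at 0.0907 CPM or less.

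Levels were compared between genes only as CPM per kb of exon. The subunits of the particle lay within a common range, from 37.4 (Psma2) to 162 (Psma6) in the alpha ring, from 43.9 (Psmb1) to 148 (Psmb5) in the beta ring, from 38.7 (Psmc2) to 148 (Psmc1) among the ATPases and from 30.0 (Psmd13) to 149 (Psmd7) among the non-ATPase subunits. The assembly chaperones were lower, from 6.19 (Psmd9) to 26.2 (Psmg4) CPM per kb. Among activators and inhibitor, Psme3 was highest at 90.7 and Psme2b lowest at 0.988 CPM per kb.

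The first question was how these genes differed between the shMCT-1 and scramble lines under the control antibody. Within IgG, 23 of 45 tested proteasome genes were higher in shMCT-1 (51.1%) and 4 were lower (8.89%) at an adjusted p under 0.05 (edgeR quasi-likelihood test, Benjamini-Hochberg over 12704 genes). Over all tested genes, 28.3% were higher and 26.2% lower. The median log2 fold change was 0.35 for the proteasome genes and 0.01 for all tested genes. The median of the proteasome genes was 0.34 without scramble + IgG replicate 2 and 0.30 without shMCT-1 + IgG replicate 2. Fewer of them were called in the latter fit, for which the share of all tested genes is not given. For genes that follow, leaving out scramble + IgG replicate 2 gave log2 fold changes within IgG of 0.78 for Psmb4, 0.54 for Psme2, 0.48 for Psmg2, 0.97 for Psma5, 0.73 for Psmb6, 0.55 for Psmd3, −0.45 for Psme4 and −0.77 for Psmd10, and each of these was still called. In such bulk samples, less RNA of a gene per cell and fewer cells that express it cannot be told apart.

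The same comparison was made between libraries treated with anti-IL-6R, which share no library with those of IgG but come from the same 2 lines. Here 22 of 45 proteasome genes were higher (48.9%) and 3 lower (6.67%), against 26.9% and 27.3% of all tested genes, and the medians were 0.30 and 0.01. With single libraries left out, the median of the proteasome genes lay between 0.23 and 0.36. Fewer of them were called higher without scramble + anti-IL-6R replicate 2, a fit for which the share of all tested genes is not given. In both comparisons, 20 proteasome genes were higher (44.4%, all tested genes 23.6%) and 3 were lower (6.67%, all tested genes 22.7%). The log2 fold changes of the 45 genes in the 2 comparisons had a Pearson's r of 0.93 and a Spearman's rho of 0.93 across genes, and 40 of 45 had the same sign. Across all 12704 genes, r was 0.90 and 11320 had the same sign. Genes are not independent replicates, and no p is attached to these values.

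In an additive model of all 8 libraries, 30 proteasome genes were higher in shMCT-1 and 6 lower. Over all tested genes, 35% were higher and 34% lower. Psmc3, Psmd14 and Psmc3ip were among the 6 lower proteasome genes. The median log2 fold change of the proteasome genes was 0.31, and 0.33 without scramble + IgG replicate 2. In CPM, every shMCT-1 library was above every scramble library for 26 of 45 proteasome genes (57.8%, all tested genes 29.9%). Every shMCT-1 library was below every scramble library for Psmc3, Psmd14, Psme4, Psmf1, Psmd10 and Psmc3ip (13.3%, all tested genes 34.2%).

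**Figure D1:**
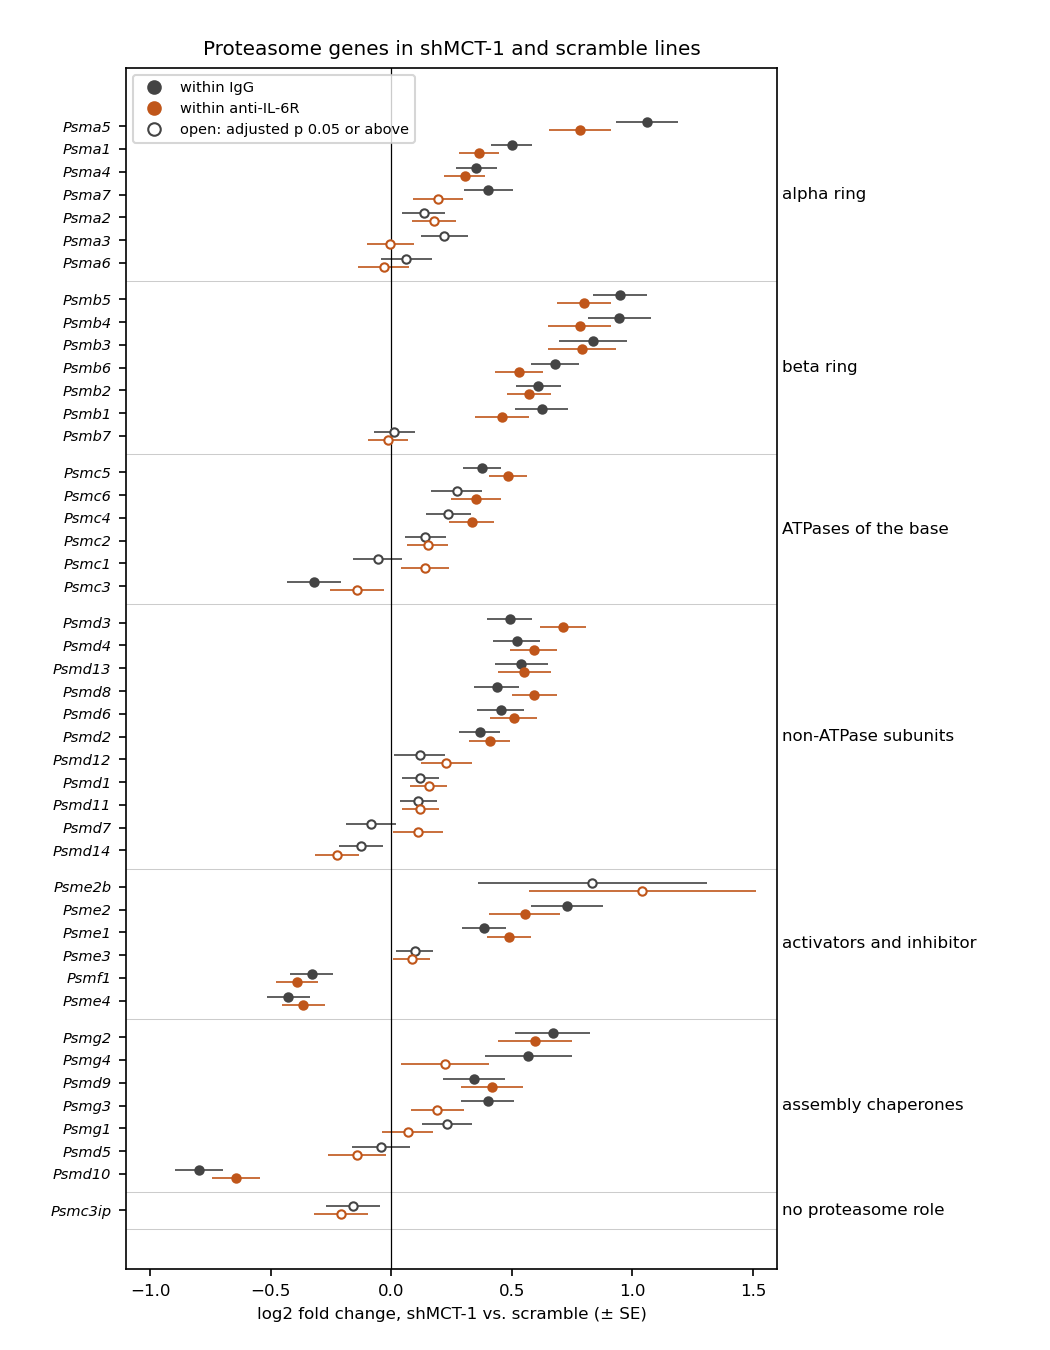
Log2 fold change of shMCT-1 vs. scramble (x axis, ± SE, 2 libraries a group) for the 45 tested proteasome genes, grouped by role, within IgG (grey) and within anti-IL-6R (orange), with filled points at an adjusted p under 0.05. All beta-ring genes except Psmb7 lie between 0.46 and 0.95, while Psme4, Psmf1 and Psmd10 lie below 0 in both comparisons.

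The beta ring showed the highest median of the role groups. Within IgG, 6 of its 7 tested genes were higher in shMCT-1 and none was lower, with a median log2 fold change of 0.68. Within anti-IL-6R, 6 of 7 were again higher, with a median of 0.57. The exception in both was Psmb7.

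Psmb5, the subunit with the chymotrypsin-like site and the usual target of proteasome inhibitors, lies on chromosome 14 at 54614119 to 54618022 (GRCm38, minus strand). It was at 100.5 and 84.5 CPM in scramble + IgG, 103 and 95.5 in scramble + anti-IL-6R, 171 and 175 in shMCT-1 + IgG and 181 and 152 in shMCT-1 + anti-IL-6R. All shMCT-1 libraries were above all scramble libraries. The log2 fold change was 0.95 ± 0.11 within IgG (SE, adjusted p = 0.000131, edgeR) and 0.80 ± 0.11 within anti-IL-6R (adjusted p = 0.000318). Without scramble + IgG replicate 2, its lowest library, the first value was 0.84 (adjusted p = 0.00144, edgeR).

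Psmb6, with the caspase-like site (chromosome 11, 70525367 to 70527858), was at 112 and 118 CPM in scramble + IgG, 121 and 117 in scramble + anti-IL-6R, 170.4 and 186 in shMCT-1 + IgG and 177 and 153 in shMCT-1 + anti-IL-6R. The groups of the 2 lines did not overlap. The log2 fold change was 0.68 ± 0.10 within IgG (adjusted p = 0.000405, edgeR) and 0.53 ± 0.10 within anti-IL-6R (adjusted p = 0.0016).

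Psmb7, with the trypsin-like site (chromosome 2, 38588036 to 38644087), was not called in either comparison. It was at 179 and 171 CPM in scramble + IgG, 180.1 and 176 in scramble + anti-IL-6R, 171 and 172 in shMCT-1 + IgG and 178 and 161 in shMCT-1 + anti-IL-6R, so that the lines overlapped. The log2 fold change was 0.01 ± 0.08 within IgG (adjusted p = 0.904, edgeR) and −0.01 ± 0.08 within anti-IL-6R (adjusted p = 0.897), and its sign turned with the scaling. The RNA of 2 of the 3 constitutive catalytic subunits was thus higher in shMCT-1 and that of the third was not called. Psmb5 and Psmb7 both had non-whole counts in all 8 libraries, as did Psma5 and Psmb3 among others, while the counts of Psmb6 were whole.

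The other called beta subunits are structural. Psmb4 was at 131 to 172 CPM in scramble and 250.2 to 298 CPM in shMCT-1 libraries, with log2 fold changes of 0.95 ± 0.13 and 0.78 ± 0.13 (adjusted p = 0.000307 and 0.000868, edgeR). Psmb3 rose from 83.1 to 114 CPM to 162 to 199 CPM, with log2 fold changes of 0.84 ± 0.14 and 0.79 ± 0.14. Its first value was 0.64 without scramble + IgG replicate 2, the library at 83.1 CPM. Psmb2 was at 118 to 130.2 CPM in scramble and 173 to 199 CPM in shMCT-1 libraries, with log2 fold changes of 0.61 ± 0.09 and 0.57 ± 0.09. None of these subunits overlapped between the lines.

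**Figure D2:**
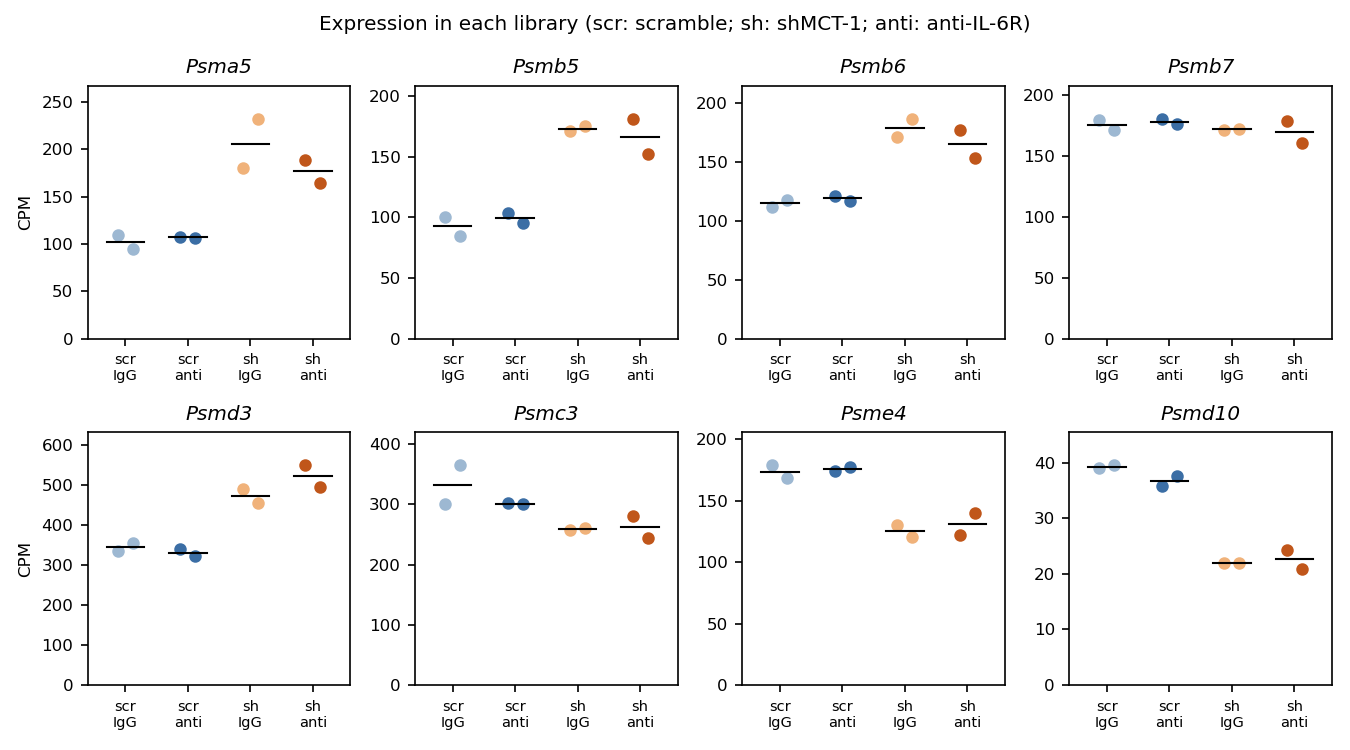
CPM (y axes, from 0) of 8 proteasome genes in each library, with a point per library and a line at the mean of the 2 libraries of each group. Psma5, Psmb5, Psmb6 and Psmd3 are higher in every shMCT-1 library, Psmc3, Psme4 and Psmd10 are lower in every one, and Psmb7 overlaps.

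The alpha ring was more mixed. Of its 7 tested genes, 4 were higher within IgG and 3 within anti-IL-6R, with none lower, and the median log2 fold changes were 0.35 and 0.19. Psma5 (chromosome 3, 108256926 to 108279974) had the highest log2 fold change within IgG of all proteasome genes. It was at 109 and 94.3 CPM in scramble + IgG, 108 and 106 in scramble + anti-IL-6R, 180.2 and 232 in shMCT-1 + IgG and 189 and 165 in shMCT-1 + anti-IL-6R. The shMCT-1 libraries were all above the scramble libraries but spread more among themselves. The log2 fold change was 1.06 ± 0.13 within IgG (adjusted p = 0.000155, edgeR) and 0.78 ± 0.13 within anti-IL-6R (adjusted p = 0.000791).

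At the other end of the ring, Psma6 was at 199.6 to 207 CPM in scramble and 172 to 219 CPM in shMCT-1 libraries. Its log2 fold changes were 0.06 ± 0.11 and −0.03 ± 0.11 (adjusted p = 0.642 and 0.819, edgeR), and both turned sign when 1 shMCT-1 library was left out. Psma4 passed the test in both comparisons, with 0.35 ± 0.08 and 0.30 ± 0.08, but the calls were lost when single libraries were left out. The first was 0.31 without shMCT-1 + IgG replicate 2 (adjusted p = 0.0551, edgeR), and the second was 0.27 and 0.33 without scramble + anti-IL-6R replicates 1 and 2 in turn (adjusted p = 0.117 and 0.066).

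Among the ATPases of the base, 1 of 6 was higher and 1 lower within IgG, and 3 were higher and none lower within anti-IL-6R. The medians were 0.19 and 0.24. Psmc5 was at 149 to 155 CPM in scramble and 192 to 207 CPM in shMCT-1 libraries, with log2 fold changes of 0.38 ± 0.08 (adjusted p = 0.00304, edgeR) and 0.48 ± 0.08 (adjusted p = 0.000761). Psmc3 was at 301 and 364 CPM in scramble + IgG, 302 and 299.7 in scramble + anti-IL-6R, 257 and 261 in shMCT-1 + IgG and 280.1 and 244 in shMCT-1 + anti-IL-6R. It was called lower within IgG (−0.32 ± 0.11, adjusted p = 0.0359, edgeR) and not within anti-IL-6R (−0.14 ± 0.11, adjusted p = 0.31). The call within IgG was lost without scramble + IgG replicate 2, the library at 364 CPM (−0.16, adjusted p = 0.223). It was also lost without scramble + anti-IL-6R replicate 1 or 2 (adjusted p = 0.0612 and 0.059) and without shMCT-1 + IgG replicate 1 or 2 (adjusted p = 0.143 and 0.115), at log2 fold changes of −0.31 to −0.33.

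Of the 11 non-ATPase subunits, 6 were higher and none lower in each comparison, with medians of 0.37 and 0.41. These were Psmd2, Psmd3, Psmd4, Psmd6, Psmd8 and Psmd13 both times. Psmd3, a subunit of the lid, was at 335 and 356 CPM in scramble + IgG, 340.3 and 322 in scramble + anti-IL-6R, 489 and 455 in shMCT-1 + IgG and 549 and 495 in shMCT-1 + anti-IL-6R. Every shMCT-1 library was above every scramble library. The log2 fold change was 0.49 ± 0.09 within IgG (adjusted p = 0.00175, edgeR) and 0.71 ± 0.09 within anti-IL-6R (adjusted p = 0.000229).

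Psmd4, a receptor for ubiquitin chains, was at 186 to 195 CPM in scramble and 249 to 294 CPM in shMCT-1 libraries, with log2 fold changes of 0.52 ± 0.10 and 0.59 ± 0.10. The lid subunit Psmd13 was at 80.6 to 87.1 CPM and 106 to 132 CPM, with 0.54 ± 0.11 and 0.55 ± 0.11. Psmd14, the deubiquitinase that removes the chain from the substrate, was not called in either comparison. In the additive model of all 8 libraries Psmd14 was called lower, and that call was lost when some single libraries were left out. It was at 133 to 139.6 CPM in scramble and 108 to 130.4 CPM in shMCT-1 libraries, and its log2 fold changes of −0.12 ± 0.09 and −0.23 ± 0.09 had adjusted p = 0.276 and 0.0621 (edgeR). The second value was called when only the 4 compared libraries were fitted (−0.23, adjusted p = 0.0494) or with a filter on all 8 libraries (−0.25, adjusted p = 0.0403).

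The activators divided by type. Psme1 and Psme2, which form the interferon-inducible cap and lie close together on chromosome 14, were higher in both comparisons. Psme2 was at 25.1 to 34.7 CPM in scramble and 42.6 to 52.5 CPM in shMCT-1 libraries, with log2 fold changes of 0.73 ± 0.15 (adjusted p = 0.00251, edgeR) and 0.55 ± 0.15 (adjusted p = 0.0101). The second call was lost without scramble + anti-IL-6R replicate 2 (0.50, adjusted p = 0.0725) and without shMCT-1 + anti-IL-6R replicate 1 (0.40, adjusted p = 0.0663). The values of Psme1 were 0.38 ± 0.09 and 0.49 ± 0.09. Psme2b, the copy of Psme2, at 0.404 to 1.37 CPM, had log2 fold changes of 0.83 ± 0.47 and 1.04 ± 0.47 that were not called (adjusted p = 0.162 and 0.0852, edgeR). Psme3, which encodes the nuclear cap, had 0.10 ± 0.08 and 0.08 ± 0.08, also not called.

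Psme4 (chromosome 11, 30771726 to 30880361) encodes a large single-chain nuclear cap. It was at 179 and 169 CPM in scramble + IgG, 174 and 177 in scramble + anti-IL-6R, 130.3 and 121 in shMCT-1 + IgG and 122 and 140.1 in shMCT-1 + anti-IL-6R. Every shMCT-1 library was below every scramble library. Its log2 fold change was −0.43 ± 0.09 within IgG (adjusted p = 0.00286, edgeR) and −0.36 ± 0.09 within anti-IL-6R (adjusted p = 0.00658). The latter call was lost without scramble + anti-IL-6R replicate 2 (−0.36, adjusted p = 0.0528). Psmf1, which encodes an inhibitor of the core, was at 41.6 to 48.9 CPM in scramble and 32.1 to 36.0 CPM in shMCT-1 libraries. Its log2 fold changes were −0.33 ± 0.09 and −0.39 ± 0.09 (adjusted p = 0.00979 and 0.00417, edgeR), and the first call was lost without shMCT-1 + IgG replicate 2 (−0.27, adjusted p = 0.0874).

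Of the 7 assembly chaperones, 4 were higher and 1 lower within IgG, and 2 were higher and 1 lower within anti-IL-6R. Psmd10, known as gankyrin, a base chaperone that also binds regulators of the cell cycle, was the most reduced proteasome gene (chromosome X, 140948429 to 140956728). It was at 39.1 and 39.5 CPM in scramble + IgG, 35.8 and 37.6 in scramble + anti-IL-6R, 21.9 and 22.0 in shMCT-1 + IgG and 24.3 and 20.9 in shMCT-1 + anti-IL-6R. Every shMCT-1 library was below every scramble library. The log2 fold change was −0.80 ± 0.10 within IgG (adjusted p = 0.00017, edgeR) and −0.64 ± 0.10 within anti-IL-6R (adjusted p = 0.000524). Psmg2, a chaperone of the alpha ring, was at 12.4 to 16.9 CPM in scramble and 20.9 to 24.5 CPM in shMCT-1 libraries, with log2 fold changes of 0.67 ± 0.15 and 0.60 ± 0.15. The second was 0.49 and not called without scramble + anti-IL-6R replicate 2 (adjusted p = 0.0808, edgeR).

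Summed over the 47 genes, the proteasome took 6792 ± 7.99 CPM in scramble + IgG and 8014 ± 95.2 CPM in shMCT-1 + IgG (SD, n = 2), a ratio of 1.18. Under anti-IL-6R the sums were 6715 ± 67.4 and 7949 ± 466 CPM (SD, n = 2), again a ratio of 1.18. As a share of all counts, these were 0.679% and 0.801% under IgG. The sum of every shMCT-1 library (7619 to 8278 CPM) was above that of every scramble library (6668 to 6797 CPM). The small SD of scramble + IgG does not hold for its role groups. Its replicates 1 and 2 were at 987 and 852 CPM for the beta ring and at 1220 and 1359 CPM for the ATPases.

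The role groups contributed unequally. The beta ring summed to 852 to 993 CPM in scramble and 1261 to 1478 CPM in shMCT-1 libraries, with ratios of 1.53 within IgG and 1.41 within anti-IL-6R. The alpha ring had ratios of 1.25 and 1.12, and the non-ATPase subunits had 1.17 and 1.24. For the ATPases the ratios were 1.01 and 1.09, and their sums overlapped between the lines. The sums of the activators and inhibitor (0.974 and 0.964) and of the chaperones (1.04 and 0.988) stayed near a ratio of 1, although the median log2 fold changes of their genes were 0.24 and 0.29 for the activators and inhibitor and 0.34 and 0.19 for the chaperones, and both of these groups held genes called in opposite directions.

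**Figure D3:**
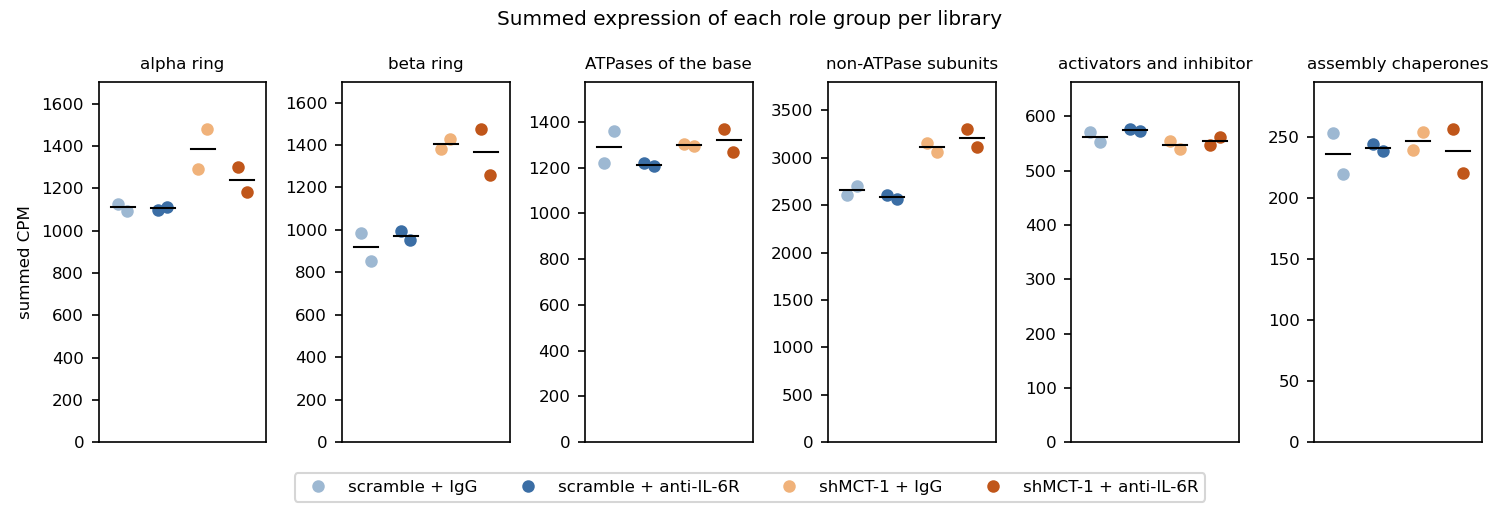
Summed CPM (y axes, from 0) of the genes of each role group in the 8 libraries, with a point per library and a line at the group mean. The beta ring lies between 852 and 993 CPM in scramble and between 1261 and 1478 CPM in shMCT-1 libraries, whereas the ATPases overlap.

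The values also differed by chromosome. On chromosomes 2, 12 and 13, which were singled out after the values were seen, the median log2 fold change of all tested genes within IgG was −0.36, −0.36 and −0.42. Of the 11 tested proteasome genes there, which include Psmb7, Psma6, Psmc3, Psmd14 and Psmf1, 2 were higher and 2 lower within IgG (median 0.01), and none was higher and 1 lower within anti-IL-6R (median −0.01). Over all tested genes on these chromosomes the medians were −0.37 and −0.37, with 10.5% and 9.25% higher and 50.0% and 50.8% lower.

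Of the 34 proteasome genes elsewhere, 21 were higher and 2 lower within IgG (median 0.39), and 22 were higher and 2 lower within anti-IL-6R (median 0.44). All tested genes elsewhere had a median of 0.07 in each comparison, with 31.6% higher and 21.7% lower within IgG and 30.3% higher and 22.9% lower within anti-IL-6R. When the median of its own chromosome was taken from each gene, the median of the 45 proteasome genes was 0.34 in both comparisons. On this scale Psmb7 was at 0.37 and 0.35, Psmc3 at 0.04 and 0.22, and Psmf1 at 0.03 and −0.02, whereas Psme4 was at −0.58 within IgG. The part that the shift of whole chromosomes had in the values of single genes was not tested.

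**Figure D4:**
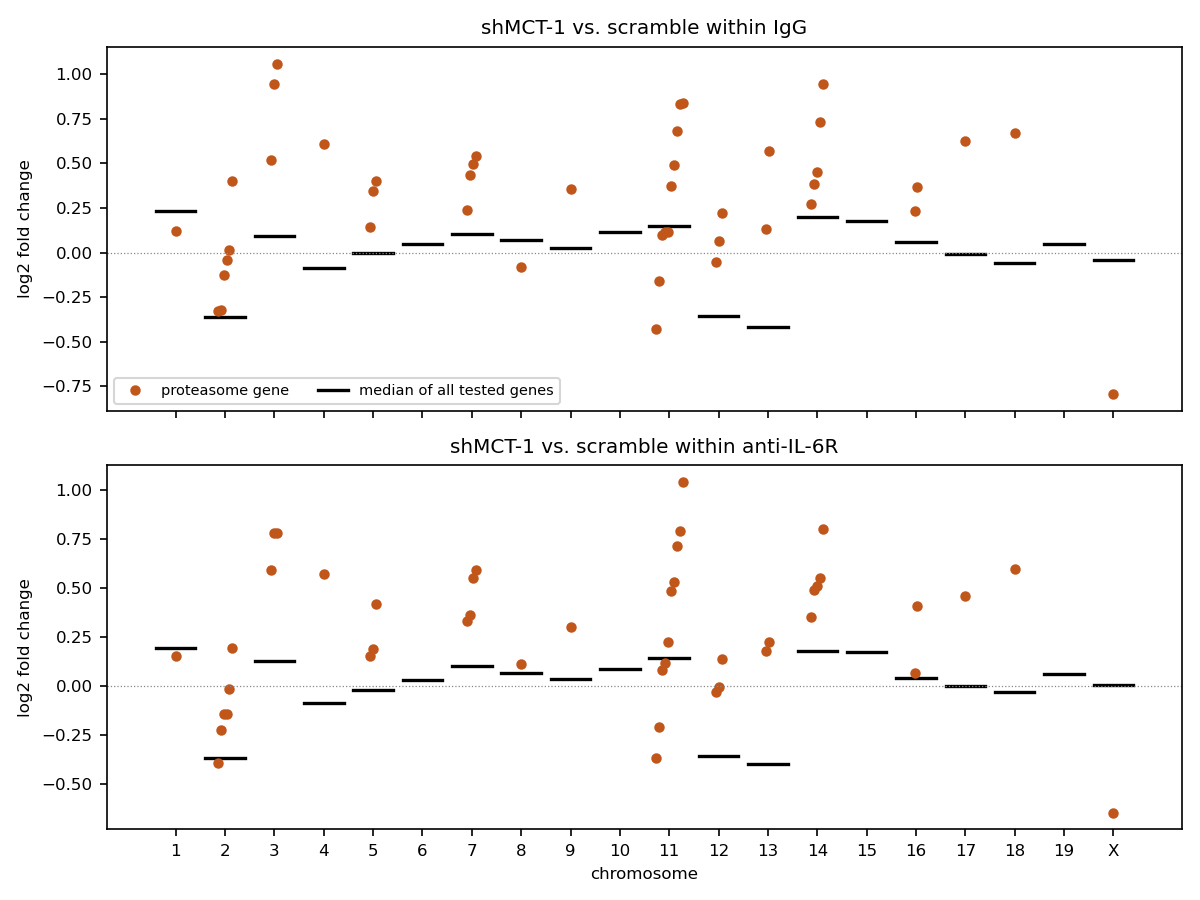
Log2 fold change (y axes) of each tested proteasome gene (points) by chromosome, with the median of all tested genes of that chromosome as a line, within IgG (top) and within anti-IL-6R (bottom). The lines of chromosomes 2, 12 and 13 lie near −0.4, and the proteasome genes on them lie mostly above their line.

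The second question was the response to anti-IL-6R. No proteasome gene was called in scramble cells, in shMCT-1 cells or for the interaction of line and antibody (edgeR). Over all tested genes 0% were called in each of these comparisons, and 1.31%, 3.98% and 2.48% had an unadjusted p under 0.05. Among the proteasome genes, 0 had such a p in scramble cells and 1 in shMCT-1 cells. This was the alpha subunit Psma3, at 216 and 252 CPM in shMCT-1 + IgG and 206 and 193 CPM in shMCT-1 + anti-IL-6R (log2 difference −0.23 ± 0.10, adjusted p = 1.00, edgeR). Across both lines no proteasome gene was called either, with 0% of all tested genes called and 2.79% at an unadjusted p under 0.05. DESeq2 called none in these comparisons, nor did edgeR's exact test in scramble or shMCT-1 cells.

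The log2 differences upon anti-IL-6R were small. The largest in size was 0.17 in scramble cells and 0.35 in shMCT-1 cells (Psmg4, −0.35 ± 0.18), and the SE of single genes had a median of 0.10 in either. For Psmb5 the difference was 0.10 ± 0.11 in scramble and −0.05 ± 0.11 in shMCT-1 cells, and the interaction was −0.15 ± 0.16 (adjusted p = 1.00, edgeR). For Psmd10 it was −0.11 ± 0.10 and 0.05 ± 0.10. With 2 libraries a group, differences of this size could not be told from the spread between replicates.

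Among 32 other genes of the pathway, 30 were tested. Within IgG, 11 were higher (36.7%, all tested genes 28.3%) and 7 lower (23.3%, all tested genes 26.2%). Within anti-IL-6R, 12 were higher (40%, all tested genes 26.9%) and 8 lower (26.7%, all tested genes 27.3%). Sem1, Pomp and Ecpas were picked by the size of their log2 fold changes in both comparisons. Sem1, a small subunit of the regulatory particle, was at 69.2 to 70.9 CPM in scramble and 151 to 178 CPM in shMCT-1 libraries (1.38 ± 0.10 and 1.29 ± 0.10). Pomp, which assists the assembly of the beta ring, was at 77.1 to 91.4 CPM and 114 to 133 CPM (0.67 ± 0.09 and 0.51 ± 0.09). Ecpas, an adaptor that binds the particle, was at 288 to 315 CPM in scramble and 150.4 to 173 CPM in shMCT-1 libraries (−0.84 ± 0.09 and −0.90 ± 0.09).

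Of the factors known to drive transcription of proteasome genes, Nfe2l2 was at 115 to 138 CPM in scramble and 55.6 to 58.8 CPM in shMCT-1 libraries (−1.14 ± 0.10 and −0.97 ± 0.10), while Nfe2l1 was at 247 to 265 CPM and 284 to 326 CPM (0.29 ± 0.09 and 0.32 ± 0.09, adjusted p = 0.0217 and 0.0146, edgeR). The call of Nfe2l1 within IgG was lost without scramble + IgG replicate 1, scramble + anti-IL-6R replicate 1 or 2, or shMCT-1 + IgG replicate 1 (0.20 to 0.29, adjusted p from 0.0504 to 0.18). Its call within anti-IL-6R was lost without scramble + anti-IL-6R replicate 1 or 2 or shMCT-1 + anti-IL-6R replicate 2 (0.28 to 0.34, adjusted p from 0.0513 to 0.117). The list of transcriptional control to which both genes belong held 4 genes. Of these, 1 was higher and 2 lower in each comparison, with medians of −0.22 and −0.38. Ddi2 was at 101 to 107 CPM in scramble and 58.6 to 81.7 CPM in shMCT-1 libraries. Ngly1 was at 11.0 to 12.7 CPM and 9.42 to 11.4 CPM. The part of these 4 genes in the levels of the proteasome genes was not tested. The inducible catalytic subunit Psmb8 had at most 4 counts in a scramble library and at least 90 in an shMCT-1 library, at 4.42 to 5.77 CPM.

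Other large complexes were set beside the proteasome as a description. Of the 7 genes of the TRiC chaperonin that were analysed, which are not all of its genes, 6 were higher and none lower in each comparison (medians 0.30 and 0.37). Of eIF3, 10 of 14 were higher in each and 3 and 1 lower, with medians of 0.31 and 0.36. Of the COP9 signalosome, whose subunits resemble those of the lid, 4 and 2 of 10 were higher and 1 lower in each, with medians of 0.22 and 0.23. The proteasome median of 0.35 within IgG was above these 3 medians, and that of 0.30 within anti-IL-6R lay between them. By the share called higher, TRiC (85.7% in each) and eIF3 (71.4% in each) were above the proteasome (51.1% and 48.9%). The COP9 signalosome (40% and 20%) was below it. Over all tested genes these shares were 28.3% and 26.9%. These differences were not tested.

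The promoters of the proteasome genes were searched for 3 motifs, since many of these genes were called in 1 direction. RefSeq promoters (GRCm38, 250 bases before to 50 after the start) were matched for 39 of 47 genes, and both strands were searched. TGACNNNGC, the core of the antioxidant response element to which Nfe2l1 and Nfe2l2 bind, was in 6 (15.4%), against 14.0% of all genes with a promoter and 17.2% of the tested ones. CCAAT was in 14 (35.9%, against 41.1% and 43.6%). CCGGAAG, a sequence bound by ETS factors, was in 15 (38.5%, against 9.93% and 21.6%). It was in the promoters of 9 of 14 genes of the regulatory particle and in 1 of 12 of the core particle. A gene with several promoters counted if any of them held a match. The gene of the core particle was Psma6, with its matches in a promoter other than that at the start of the gene. Matches of different motifs overlapped in 0 places in these promoters.

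Matches are shown for the catalytic subunits with TGACNNNGC and for subunits with CCGGAAG that were called in both comparisons, on the strand of the gene, with the motif in capitals. The lines of Psmb5 and Psmb6 show TGACNNNGC and the others CCGGAAG, which in Psmd2 is on the opposite strand. Distances are from the RefSeq start, which can differ from the gene coordinates given above, as in Psme4.
Psmb5 (chr14:54618024-54618052, 47 bases before the start): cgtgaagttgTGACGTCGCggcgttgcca
Psmb6 (chr11:70525338-70525366, 9 bases before the start): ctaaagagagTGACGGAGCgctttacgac
Psmd2 (chr16:20651615-20651643, 26 bases before the start): tccgcagggcgCTTCCGGtctggaggaca
Psmd4 (chr3:95042722-95042750, 125 bases before the start): ttacagctgttCCGGAAGctgctgcgaag
Psmd6 (chr14:14120973-14121001, 45 bases before the start): cagagacgcgaCCGGAAGtcagactggcg
Psmd13 (chr7:140882377-140882405, 6 bases before the start): cgcccgcggtgCCGGAAGtgagcgagcac
Psme4 (chr11:30771711-30771739, 53 bases before the start): gtggccccgccCCGGAAGtgacttgaggc

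Psmd2, Psmd4, Psmd6 and Psmd13 were higher in shMCT-1 and Psme4 was lower, so that the CCGGAAG match was shared by genes called in both directions. The other genes with CCGGAAG were Psma6, Psmc1, Psmc2, Psmc6, Psmd11, Psmd12, Psmc3ip, Psme3, Psmg1 and Psmg3, and none was called in both comparisons. Of these, Psmg3 was called higher only within IgG and Psmc6 only within anti-IL-6R. The 6 genes with TGACNNNGC were Psmb5 and Psmb6, the higher catalytic subunits, with Psmc6, Psmd9, Psmd12 and Psme4, and a promoter of Psmb7 was not among those matched. A match describes the letters of these windows and does not show that a factor binds there.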

How the data were processed

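Poly(A) RNA of 4T1 cells was sequenced in 8 libraries, 2 in each of 4 groups named by the labels. The authors used cutadapt for trimming and STAR 2.7.0d for alignment to mm10, and deposited RSEM expected counts of 54532 genes, not normalized for depth or length. The authors name release M19 of GENCODE, and symbols and coordinates here come from release M21 (GRCm38), in which 54409 identifiers were found without their version. Counts were rounded to whole numbers (29.6% of values above 0 were not whole), and 1 CPM stood for 19.8 to 33.1 counts, which covers counting error only.

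Genes above 1 CPM in at least 2 libraries were kept (12704), scaled by TMM and fitted with the quasi-likelihood functions of edgeR 4.0.16 in R 4.3.3, with p-values adjusted by Benjamini-Hochberg over all tested genes and called under 0.05. Errors of log2 fold changes are SE from the same fit. Fits used all 8 libraries with 4 group means, and an additive model of line and antibody. CPM and the summed levels were scaled to library totals, without TMM factors. The test was also run on simulated data in which far fewer genes changed than were called between the lines here. That run therefore does not show how the test behaves in this setting.

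Named genes were Mcts1, the catalytic subunits, the extremes of each role, the members called in both shMCT-1 comparisons in the same direction with a log2 fold change of at least 0.5 in size, the untested members, up to 8 other pathway genes by the same rule and members with an unadjusted p under 0.05 upon anti-IL-6R. Others (Psma4, Psme1, Psme3, Psmf1, Psmg4, Nfe2l1, Ddi2 and Ngly1) were added after their values were seen. The members, the lists and the motifs were chosen with earlier results of these data known. Of the listed genes, 2 were not analysed here. Some genes that met the naming rule are not reported here. Alternatives were DESeq2 1.42.0, edgeR's exact test, RLE factors, other filters, the 4 compared libraries alone, the replicate number as a block, an unadjusted p, values less the chromosome median, leaving out Psmc3ip and leaving out each library.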

Additional observations from a re-analysis of the deposited data

How the results depend on the processing

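Counts of proteasome genes called and their medians kept their direction under all alternatives tried in the 2 comparisons of shMCT-1 within an antibody. With single libraries left out, the medians were 0.28 to 0.36 within IgG and 0.23 to 0.36 within anti-IL-6R. The shares of all tested genes called in these fits are not given. Their counts of calls therefore cannot be set against those of the full fits. Of the 23 genes higher within IgG, 18 were called in every such fit, and of the 22 within anti-IL-6R, 14 were. Across both treatments 25 to 31 were higher and 3 to 6 lower (3 without shMCT-1 + IgG replicate 1 or without shMCT-1 + anti-IL-6R replicate 2). Upon anti-IL-6R in shMCT-1 cells the median lay between −0.080 and 0.075 and for the interaction between −0.046 and 0.056, and 1 gene was lower at an unadjusted p under 0.05. The ratio of summed levels within IgG was 1.22 with TMM and 1.12 per kb of exon, and 1.17 to 1.19 without single libraries. Within anti-IL-6R it was 1.13 to 1.23 without single libraries.

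Values near 0 turned sign. Psmb7 within IgG was −0.0052 with DESeq2 and with RLE factors, −0.0026 with a filter on all 8 libraries and −0.0022 without scramble + IgG replicate 2. Within anti-IL-6R it was 0.0074 with filterByExpr, 0.0055 without scramble + anti-IL-6R replicate 1 and 0.077 without shMCT-1 + anti-IL-6R replicate 2. Without single libraries it ranged from −0.0022 to 0.024 and from −0.082 to 0.077. Psma6 was −0.030 within IgG without shMCT-1 + IgG replicate 2 and 0.11 within anti-IL-6R without shMCT-1 + anti-IL-6R replicate 2, in ranges of −0.030 to 0.15 and −0.16 to 0.11. Psmc3 within IgG was 0.040 less its chromosome median. The cause was not tested. Of 640 values of 19 named genes, 594 kept direction and call. Deviations of replicate 1 had correlations of −0.080 to 0.11 between groups, which cannot show whether replicate numbers pair the libraries. With the replicate block, 24 genes were higher and 4 lower within IgG and 22 and 3 within anti-IL-6R. Psme2b had no value without shMCT-1 + IgG replicate 2 or shMCT-1 + anti-IL-6R replicate 1, where it missed the filter. Depth limits Psme2b, Psma8 and Psmb11.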
